A study of Mus musculus with 10 samples.

Results

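The mitochondrial genome of the mouse is a small circular DNA, and every gene that it carries was measured in this hippocampal RNA-seq series. The genes were all 37 rows of the deposited count table whose symbol starts with mt-, out of 27343 rows, and they are the 37 genes that GENCODE M21 places on the mitochondrial chromosome (GRCm38). They comprise 13 messenger RNAs, 2 ribosomal RNAs and 22 transfer RNAs. The RNA came from wild-type male C57BL/6J mice aged 2 months. In 5 Visudyne libraries, the mice had received Visudyne into the cisterna magna, a preparation of the photosensitizer verteporfin, followed by red light of 689 nm above the intact skull to ablate meningeal lymphatic vessels. In 5 vehicle libraries, the mice had received vehicle as the control injection, and the protocol in the labels gives the same light step for both groups. The procedure was given again after 2 weeks, all mice then performed the Morris water maze, and the whole hippocampus was taken 3 days after it. The labels name no genetic alteration, no pooling of animals and no batch. They do not state that each library is a separate mouse, so the p-values measure only the spread between these samples.

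Mitochondrial DNA is transcribed from promoters in its control region into long polycistronic RNAs, which are cut apart mainly at the transfer RNAs that lie between the other genes. The heavy strand encodes both ribosomal RNAs, most messenger RNAs and most transfer RNAs, and the light strand encodes mt-Nd6 and a set of transfer RNAs. The proteins are core subunits of respiratory complexes I, III, IV and V, which neurons depend on for ATP, while all of the proteins that transcribe and process the RNA come from the nucleus. In these data 28 of the 37 genes lay on the heavy strand, as 12 messenger RNAs, 2 ribosomal RNAs and 14 transfer RNAs. The light strand held mt-Nd6 and 8 transfer RNAs.

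The genes adjoin or overlap, and this sets how reads can be assigned, so the overlaps are shown first. The sequences are the GENCODE M21 transcripts (GRCm38), written 5′ to 3′ on the plus strand of the annotation. mt-Atp8 and mt-Atp6, subunits of ATP synthase, share 43 bases in different reading frames. mt-Nd4l and mt-Nd4, subunits of complex I, share 7 bases, and the 3′ ends of mt-Nd5 and mt-Nd6 share 14 bases on opposite strands. Capitals mark the shared bases.
mt-Atp8/mt-Atp6, chrM:7912-7984: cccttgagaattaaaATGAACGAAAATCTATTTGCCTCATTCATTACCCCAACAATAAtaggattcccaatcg
mt-Nd4l/mt-Nd4, chrM:10152-10188: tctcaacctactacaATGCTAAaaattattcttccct
mt-Nd5/mt-Nd6, chrM:13537-13580: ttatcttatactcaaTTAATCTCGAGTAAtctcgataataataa

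Transfer RNAs have 59 to 75 annotated bases, and 3 are printed with the anticodon in capitals, since the results below return to them. mt-Ts1 (serine) and mt-Tp (proline) are the most counted light-strand transfer RNAs, and mt-Tf (phenylalanine) opens the annotated chromosome on the heavy strand. Each is written 5′ to 3′ on its own strand, which is minus for mt-Ts1 and mt-Tp and plus for mt-Tf.
mt-Ts1, chrM:6870-6938: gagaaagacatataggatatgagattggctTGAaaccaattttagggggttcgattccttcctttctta
mt-Tp, chrM:15356-15422: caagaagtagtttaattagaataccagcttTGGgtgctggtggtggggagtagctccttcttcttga
mt-Tf, chrM:1-68: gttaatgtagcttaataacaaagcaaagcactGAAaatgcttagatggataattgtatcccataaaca

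Mitochondrial RNA made up 42.6% to 49.3% of all counts in Visudyne libraries and 40.4% to 44.1% in vehicle libraries. Total counts were 34548474 to 36956138 in Visudyne libraries and 24752362 to 41073906 in vehicle libraries. Counting error was small for messenger and ribosomal RNAs and large for most transfer RNAs. The tissue label was checked with markers of hippocampal neurons, whose 6 members were all detected and summed to 309 to 427 CPM in Visudyne libraries, against 376 to 469 CPM in vehicle libraries, with 2 of 6 called lower. CPM express counts against library sizes that were scaled by the trimmed mean of M values (TMM). The 4 oligodendrocyte markers summed to 1824 to 2109 CPM in Visudyne and 1865 to 2470 CPM in vehicle libraries, with 3 of 4 called lower. The 4 microglia markers summed to 90.8 to 101.5 CPM in Visudyne and 86.2 to 97.0 CPM in vehicle libraries, with 1 of 4 called lower. The 5 choroid plexus markers summed to 22.8 to 413 CPM in Visudyne and 22.2 to 33.5 CPM in vehicle libraries, with 1 of 5 called higher. Of the 4 astrocyte, 3 endothelial and 2 tested blood markers, 0 were called. Over all tested genes, 8.98% were called higher and 11.5% lower. The part of these cell types in the results below was not tested. Markers of heart and skeletal muscle, tissues rich in mitochondria, were near 0, at a sum of at most 0.521 CPM in Visudyne and 0.763 CPM in vehicle libraries.

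With TMM library sizes and all libraries, transcripts of the mitochondrial genome were higher in the Visudyne hippocampus. Messenger RNAs annotated on both strands and both ribosomal RNAs were among those called. No mitochondrial gene was called in the fits below that took account of GC content or of 1 surrogate variable. None was called without Visudyne 3 or without vehicle 6 either. Of the 13 messenger RNAs, 11 rose, 0 fell and 2 did not pass the test, at a median log2 fold change of 0.43. Both ribosomal RNAs rose, by 1.26-fold and 1.29-fold. Of the 22 transfer RNAs, 15 had enough counts to be tested, and only mt-Ts1 passed. A gene passed, or was called, where its p from edgeR's quasi-likelihood test was under 0.05 after Benjamini-Hochberg adjustment over all 15938 tested genes. Of these, 20.5% were called, 8.98% as higher and 11.5% as lower, around a median log2 fold change of 0.01. At an unadjusted p under 0.05 there were 21 mitochondrial genes of the 30 tested, where 39.8% of all genes lay under it. All 30 tested mitochondrial genes had a log2 fold change above 0, where 8137 of all 15938 genes did. These genes are cut from shared precursor RNAs, so they are not 30 separate observations. With total counts as the library size, 6 of the 30 were below 0. In RNA from a whole tissue, fewer cells of a type and less RNA per cell cannot be told apart.

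**Figure D1:**
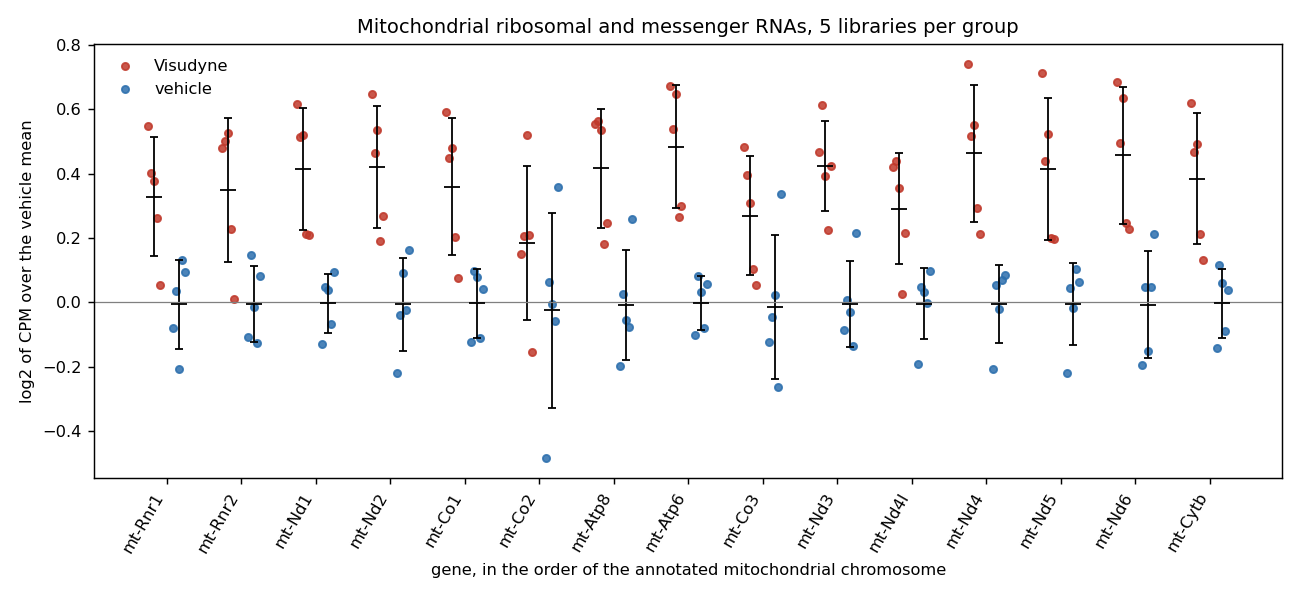
Log2 of each library's CPM over the vehicle mean for the 2 ribosomal and 13 messenger RNAs, in chromosome order, as 5 points for the libraries of a group and the group mean with its SD in black. The Visudyne points lie above all vehicle points for 8 messenger RNAs, among them mt-Nd1, mt-Atp6 and mt-Nd6. The groups overlap widely for mt-Co2, while for mt-Co3 only vehicle 10 lies within the Visudyne range.

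The calls were not evenly supported by the libraries. The number of mitochondrial genes called was 14 with all libraries. It was 0 when Visudyne 3 was left out and 0 when vehicle 6 was left out, then 3 for vehicle 9, 9 for Visudyne 1 and 9 for Visudyne 2. The number called over all genes also fell in those fits, against 3261 with all libraries. It was 27 for Visudyne 3, 10 for vehicle 6, 309 for vehicle 9, 1119 for Visudyne 1 and 1825 for Visudyne 2. At an unadjusted p under 0.05 in edgeR there were 17 of the 30 mitochondrial genes and 5332 of all 16149 tested genes without Visudyne 3, and 16 of the 30 and 5135 of all 16068 without vehicle 6. Each messenger RNA kept a positive log2 fold change in all 10 fits that left out 1 library, with a lowest value of 0.096 for mt-Co2.

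The ribosomal RNAs form the core of the mitochondrial ribosome. mt-Rnr2 (ENSMUSG00000064339, chrM:1094-2675), the RNA of the large subunit, stood at 436528, 443482, 451488, 366535 and 315756 CPM in Visudyne libraries 1 to 5, against 290774, 346946, 310324, 286755 and 331220 CPM in vehicle libraries 6 to 10. Visudyne 5 was the lowest of its group and lay inside the vehicle range, so the groups overlapped. The log2 fold change was 0.36 (edgeR adjusted p = 0.041, SE 0.11, 5 libraries a group). mt-Rnr1 (ENSMUSG00000064337, chrM:70-1024), the RNA of the small subunit, stood at 64786, 58549, 57515, 53172 and 45941 CPM in Visudyne, against 41933, 45432, 38329, 48488 and 47233 CPM in vehicle. Here too Visudyne 5 lay inside the vehicle range, and the log2 fold change was 0.34 (edgeR adjusted p = 0.039, SE 0.10). Of the 10 fits that left out 1 library, each ribosomal RNA passed in 1, the fit without Visudyne 5.

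Complex I, which takes electrons from NADH, has 7 subunits encoded here, and all of their messenger RNAs rose. mt-Nd1 (ENSMUSG00000064341, chrM:2751-3707), the first messenger RNA after the ribosomal genes, was at 5009, 4666, 4687, 3788 and 3782 CPM in Visudyne libraries 1 to 5, against 2993, 3383, 3358, 3121 and 3494 CPM in vehicle libraries 6 to 10. Every Visudyne library was above every vehicle library, and Visudyne 4 and 5 were the nearest to them. The log2 fold change was 0.42 (edgeR adjusted p = 0.023, SE 0.090). mt-Nd4 (ENSMUSG00000064363, chrM:10167-11544) was at 4057, 3475, 3554, 2972 and 2809 CPM in Visudyne, against 2100, 2520, 2391, 2546 and 2571 CPM in vehicle, again with no overlap. Its log2 fold change was 0.48 (edgeR adjusted p = 0.023, SE 0.10). mt-Nd2 (chrM:3914-4951) was at 1753 to 2408 CPM in Visudyne and 1320 to 1719 CPM in vehicle libraries. mt-Nd3 (chrM:9459-9806) was at 829.3 to 1085 CPM in Visudyne and 645.6 to 822.5 CPM in vehicle libraries. mt-Nd5 (chrM:11742-13565) was at 1477 to 2112 CPM in Visudyne and 1105 to 1384 CPM in vehicle libraries. None of these 3 overlapped between the groups, and each had a log2 fold change of 0.43. mt-Nd4l had the smallest rise of the complex I messengers, at 0.30 (edgeR adjusted p = 0.034, SE 0.085), and its lowest Visudyne library, at 201.5 CPM, lay inside the vehicle range of 173.3 to 211.8 CPM.

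mt-Nd6 (ENSMUSG00000064368, chrM:13552-14070) is the complex I subunit on the light strand, and it rose too. The strand setting of the counting was not stated, so its reads and those of the heavy-strand RNA opposite it cannot be told apart. It was at 476.3, 418, 460.6, 351.9 and 347.2 CPM in Visudyne, against 259, 306.5, 266.9, 306.2 and 343.8 CPM in vehicle. The lowest Visudyne library stood just above the highest vehicle library, so the groups did not overlap. The log2 fold change was 0.47 (edgeR adjusted p = 0.025, SE 0.11). In all, 8 of the 13 messenger RNAs had Visudyne libraries that were all above the vehicle libraries, and 5.25% of all tested genes did.

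Complex III, which passes electrons to cytochrome c, has 1 subunit encoded here. mt-Cytb (ENSMUSG00000064370, chrM:14145-15288), cytochrome b, was at 4712, 4243, 4314, 3556 and 3363 CPM in Visudyne, against 2778, 3323, 3198, 2887 and 3152 CPM in vehicle, without overlap. The log2 fold change was 0.40 (edgeR adjusted p = 0.027, SE 0.096). It is the last messenger RNA of the heavy strand, and mt-Nd1, the first after the ribosomal genes, was at 0.42.

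Complex IV, cytochrome c oxidase, has 3 subunits encoded here, of which mt-Co1 rose and mt-Co2 and mt-Co3 did not pass. mt-Co1 (ENSMUSG00000064351, chrM:5328-6872), the catalytic subunit, was at 21627, 19612, 20036, 16525 and 15150 CPM in Visudyne, against 13174, 15366, 15182, 13310 and 14773 CPM in vehicle. Visudyne 5 lay inside the vehicle range, and the log2 fold change was 0.37 (edgeR adjusted p = 0.031, SE 0.10). mt-Co2 (ENSMUSG00000064354, chrM:7013-7696) was at 452.6, 470.5, 585.2, 471.9 and 366.9 CPM in Visudyne, against 292, 426.4, 406.4, 392.2 and 523.8 CPM in vehicle. Vehicle 10 exceeded 4 of the 5 Visudyne libraries, and the log2 fold change of 0.20 (edgeR adjusted p = 0.31, SE 0.14) did not pass. mt-Co3 (ENSMUSG00000064358, chrM:8607-9390) was at 3834, 3611, 3399, 2950 and 2846 CPM in Visudyne, against 2518, 2660, 2787, 2286 and 3465 CPM in vehicle. Vehicle 10 was again high, and the log2 fold change of 0.28 (edgeR adjusted p = 0.096, SE 0.12) did not pass, but mt-Co3 was called without vehicle 10 and without Visudyne 5.

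Complex V, ATP synthase, has 2 subunits encoded here. mt-Atp6 (ENSMUSG00000064357, chrM:7927-8607), part of the proton channel, was at 6084, 5545, 5985, 4593 and 4705 CPM in Visudyne, against 3562, 4040, 3908, 3613 and 3977 CPM in vehicle. The groups did not overlap, and this was the largest log2 fold change of the 13 messenger RNAs, at 0.49 (edgeR adjusted p = 0.020, SE 0.090). mt-Atp8 (ENSMUSG00000064356, chrM:7766-7969), a small subunit beside it, was at 823.2, 827.9, 813.3, 635.9 and 664.9 CPM in Visudyne libraries, against 488.9, 570.9, 539.4, 532.2 and 671.4 CPM in vehicle libraries. Its log2 fold change was 0.43 (edgeR adjusted p = 0.027, SE 0.10), and vehicle 10 exceeded the 2 lowest Visudyne libraries.

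Several of these genes have near-identical copies in the nuclear genome, which makes their counts uncertain. A search of the GENCODE M21 transcripts found copies of at least 90% identity over at least 100 bases for 11 of the 37 genes. Copies on chromosome 1, in the region from 24611535 to 24616197, matched 681 of 684 bases of mt-Co2 and 783 of 784 bases of mt-Co3 at 100% identity. In the same region, 678 of 681 bases of mt-Atp6, 294 of 297 bases of mt-Nd4l and 876 of 1378 bases of mt-Nd4 were matched at 100%, mt-Nd3 over 345 bases at 99.71%, and mt-Co1 over 483 bases at 99.79%. The identifiers of these 7 copies were not among the 27343 deposited rows. How the authors' counting treated reads that fit both places was not stated. The more divergent copies that were analysed had at most 83 counts in a library, and Gm13340 on chromosome 2, a copy of mt-Co1, was the only one with a mean of at least 1 CPM, at 2.05 CPM of total counts. Adding their counts to the mitochondrial genes left 14 called.

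Levels between genes were compared as CPM per kilobase of annotated length. mt-Rnr2 stood at 254588 in Visudyne and 197980 in vehicle libraries on this scale, and mt-Rnr1 at 58631 in Visudyne and 46370 in vehicle libraries. Among the messenger RNAs mt-Co1 was highest, at 12032 ± 1727 in Visudyne and 9295 ± 676 in vehicle (SD, n = 5 each), followed by mt-Atp6 at 7904 in Visudyne and 5610 in vehicle. mt-Nd1 came next at 4583.5 in Visudyne and 3417 in vehicle, and was above mt-Co3, at 4245 in Visudyne and 3499 in vehicle, in 7 of the 10 libraries. The lowest in Visudyne libraries were mt-Nd5 at 949.7, mt-Nd4l at 819.9, mt-Nd6 at 792 and mt-Co2 at 686. In vehicle libraries mt-Nd5 was at 706, mt-Nd4l at 666, mt-Nd6 at 571 and mt-Co2 at 597, and the ranges of neighbours overlapped among those 4 genes. mt-Co2 stood below the light-strand messenger mt-Nd6 in 6 of 10 libraries, while its complex IV partners mt-Co1 and mt-Co3 were among the 6 highest of all 15 genes. mt-Co1, mt-Co2, mt-Co3, mt-Atp6, mt-Nd3, mt-Nd4 and mt-Nd4l have the near-identical nuclear copies described above. mt-Atp8 and mt-Nd4l also share bases with the gene after them. The part of read assignment in this order was not tested.

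**Figure D2:**
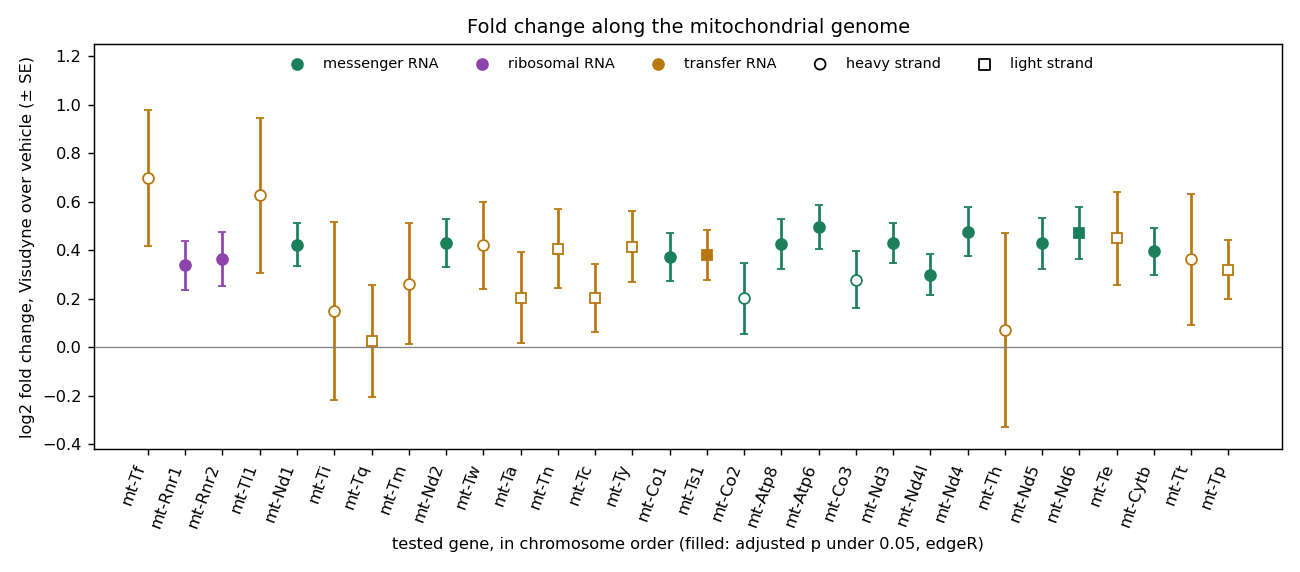
Log2 fold change of Visudyne over vehicle with its SE for the 30 tested mitochondrial genes in chromosome order, where filled symbols passed the test, circles are heavy-strand genes and squares light-strand genes. The messenger and ribosomal RNAs lie between 0.20 and 0.49 on both strands, and the transfer RNAs scatter from 0.03 to 0.70 with larger errors.

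The transfer RNAs were thinly counted, at 1 to 1823 counts in a library. Together they held 0.00813% to 0.0103% of counts in Visudyne and 0.00783% to 0.00913% in vehicle libraries. Of these counts, 91.1% to 94.4% in Visudyne and 92.2% to 94.9% in vehicle fell on the 8 light-strand transfer RNAs, although the heavy strand encodes 14. Each light-strand transfer RNA lies opposite the heavy-strand transcript. The kit marks strand, but the strand setting of the counting is not given in the sources used here, so reads of the light-strand transfer RNAs and of the heavy-strand RNA opposite them cannot be told apart.

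mt-Ts1, whose last 3 bases lie opposite the end of mt-Co1, was the most counted transfer RNA. It was at 56.3, 54.4, 56.8, 45 and 43.4 CPM in Visudyne libraries 1 to 5, against 32, 39.1, 41.3, 39.3 and 45.1 CPM in vehicle libraries 6 to 10. Vehicle 10 lay above the 2 lowest Visudyne libraries, and the log2 fold change of 0.38 (edgeR adjusted p = 0.031, SE 0.10) passed. mt-Tp was at 27.4, 23.9, 24.4, 17.7 and 19.3 CPM in Visudyne, against 18.2, 19.9, 18.9, 14.6 and 18.7 CPM in vehicle. Only Visudyne 1 to 3 lay above all vehicle libraries, and the log2 fold change of 0.32 did not pass (edgeR adjusted p = 0.072).

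The other tested light-strand transfer RNAs were mt-Ty (tyrosine) at 0.42, mt-Te (glutamate) at 0.45, mt-Tn (asparagine) at 0.41, mt-Ta (alanine) at 0.21, mt-Tc (cysteine) at 0.20 and mt-Tq (glutamine) at 0.03, all as log2 fold changes, and none passed. On the heavy strand, mt-Tf had the highest log2 fold change of the 30 tested genes, at 0.70 (edgeR adjusted p = 0.087, SE 0.28), on 17 to 44 counts in Visudyne and 16 to 20 counts in vehicle libraries. mt-Tl1 (leucine) at 0.63, mt-Tw (tryptophan) at 0.42, mt-Tt (threonine) at 0.36, mt-Tm (methionine) at 0.26, mt-Ti (isoleucine) at 0.15 and mt-Th (histidine) at 0.07 did not pass either. The 7 that were not tested, mt-Tv, mt-Td, mt-Tk, mt-Tg, mt-Tr, mt-Ts2 and mt-Tl2, had 1 to 13 counts in a library. A difference could not be shown at such low counts.

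The make-up of the mitochondrial counts by class overlapped between the groups. mt-Rnr2 held 79.8% ± 0.969 of them in Visudyne and 79.8% ± 1.18 in vehicle libraries, and mt-Rnr1 held 11.1% ± 0.620 in Visudyne and 11.3% ± 1.21 in vehicle (SD, n = 5 each). The messenger RNAs held 9.08% ± 0.456 in Visudyne and 8.85% ± 0.323 in vehicle libraries. The ranges overlapped in each class. As a share of all counts in the library, the messenger RNAs were at 3.93% to 4.56% in Visudyne and 3.48% to 3.86% in vehicle libraries, without overlap, and the ribosomal RNAs at 38.5% to 45.0% in Visudyne and 36.9% to 40.4% in vehicle, with overlap. Nuclear protein-coding genes held 49.2% to 55.8% of all counts in Visudyne and 54.5% to 58.3% in vehicle libraries.

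Ratios of genes within a library do not depend on the library size, and they asked whether the mitochondrial transcripts differed among themselves. The 8 ratios were chosen by strand and position, and 0 of them passed in an exact two-sided permutation test over every assignment of the libraries to 2 groups of 5, with a smallest adjusted p of 0.254 over the 8. The smallest p that the test can give is 0.00794, which becomes 0.0635 for 1 ratio alone among 8, so no ratio could have passed by itself, and the count of 0 does not show that the ratios were equal. At an unadjusted p under 0.05 there was 1, mt-Atp6 over mt-Co3.

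The small to large ribosomal RNA ratio, mt-Rnr1 over mt-Rnr2, was 0.148, 0.132, 0.127, 0.145 and 0.145 in Visudyne libraries 1 to 5, against 0.144, 0.131, 0.124, 0.169 and 0.143 in vehicle libraries 6 to 10. Vehicle 8 and 9 were the extremes, and the mean log2 difference was -0.019 (exact permutation p = 0.905). mt-Nd1 over mt-Rnr2, the first messenger over the ribosomal RNA before it, averaged 0.0109 ± 0.000745 in Visudyne and 0.0105 ± 0.000461 in vehicle (SD, n = 5 each, exact permutation p = 0.254). mt-Cytb over mt-Nd1, the far over the near end of the heavy-strand messengers, averaged 0.920 ± 0.0215 in Visudyne and 0.938 ± 0.0305 in vehicle (n = 5 each, exact permutation p = 0.310). These 3 ratios of the heavy strand differed by less than the spread between libraries, with a pooled within-group SD of the log2 ratio of 0.14, 0.082 and 0.041.

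The light strand was set against the heavy strand by mt-Nd6, with the limit on strand given above. Its ratio to mt-Nd5, with which it overlaps, averaged 0.237 ± 0.00852 in Visudyne and 0.230 ± 0.0170 in vehicle (n = 5 each, exact permutation p = 0.405). Its ratio to mt-Cytb, the next messenger, averaged 0.102 ± 0.00339 in Visudyne and 0.0968 ± 0.0106 in vehicle (n = 5 each, exact permutation p = 0.333). In both ratios the whole Visudyne range lay inside the vehicle range.

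Ratios between heavy-strand messengers were taken for 3 further pairs. mt-Atp6 over mt-Co3, which overlap by 1 base, was 1.59, 1.54, 1.76, 1.56 and 1.65 in Visudyne libraries 1 to 5, against 1.41, 1.52, 1.40, 1.58 and 1.15 in vehicle libraries 6 to 10. The log2 difference was 0.20 with overlapping groups, and the exact permutation p was 0.0317, or 0.254 adjusted over the 8 ratios. Vehicle 10, where mt-Co3 was high, had the lowest value, and without it the log2 difference was 0.13. mt-Nd3 over mt-Co3 averaged 0.289 ± 0.0298 in Visudyne and 0.261 ± 0.0175 in vehicle (n = 5 each, exact permutation p = 0.103), and mt-Co2 over mt-Co1 averaged 0.0254 ± 0.00346 in Visudyne and 0.0283 ± 0.00482 in vehicle (n = 5 each, exact permutation p = 0.310). With the GC trend removed, the log2 difference of mt-Nd3 over mt-Co3 was 0.050, against 0.15 without removal, and it was 0.093 when Visudyne 5 was left out. That of mt-Co2 over mt-Co1 was -0.15 with all libraries, -0.067 without vehicle 10, -0.086 without Visudyne 1 and -0.24 without vehicle 6. All of these genes have the chromosome 1 copies described above.

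**Figure D3:**
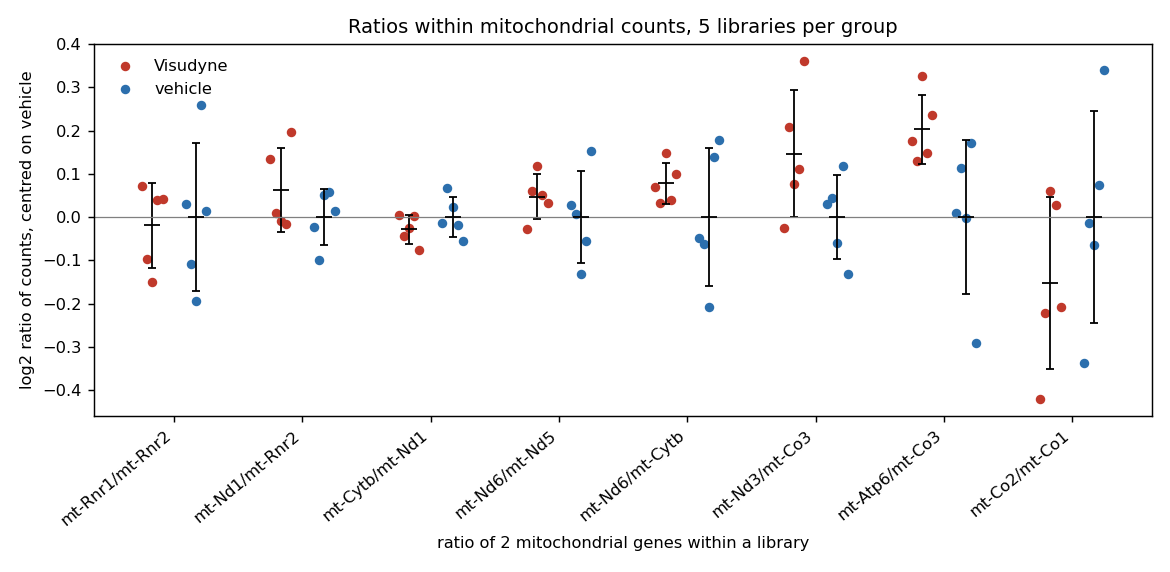
Log2 ratio of the counts of 2 mitochondrial genes in the same library for 8 pairs, centred on the vehicle mean, as 5 points for the libraries of a group and the group mean with its SD in black. The groups overlap in all 8 ratios, and the widest spread is in mt-Co2 over mt-Co1.

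Differences among the mitochondrial genes were also read from a fit of the whole table with the summed counts of the 13 messenger RNAs as library size, so that each fold is relative to them. Of the 30 tested mitochondrial genes 0 were called higher or lower, where 0.251% of all genes were called higher and 49.0% lower. At an unadjusted p under 0.05 there was 1 of the 30, mt-Atp6, at a log2 fold change of 0.096 (edgeR adjusted p = 0.073, SE 0.042). The ribosomal RNAs were at -0.064 for mt-Rnr1 and -0.037 for mt-Rnr2, and mt-Co2 at -0.18 and mt-Co3 at -0.11 were the lowest messengers. The sum includes the 13 messenger RNAs, so their values show how they differ among themselves. The ribosomal and transfer RNAs are not in the sum, so their values are relative to the messengers. Neither shows whether the messenger pool changed.

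The share of each gene in the 13 messenger RNAs was steadier than its CPM. The pooled within-group SD of log2 CPM was 0.14 to 0.27 over the messengers, and that of the log2 share was 0.020 for mt-Nd1 to 0.21 for mt-Co2, smaller for 13 of 13. For mt-Nd3 it was nearly the same, at 0.137 as log2 CPM and 0.136 as log2 share. Each gene is also part of the sum that it is divided by. mt-Co1 took 40.6% ± 0.745 of the messenger counts in Visudyne and 41.4% ± 1.11 in vehicle libraries (SD, n = 5 each). mt-Atp6 took 11.8% ± 0.385 in Visudyne and 11% ± 0.228 in vehicle, and it was the only one of the 13 whose shares did not overlap, with 11.5% to 12.2% in Visudyne and 10.7% to 11.3% in vehicle. mt-Nd6 took 0.897% ± 0.0269 in Visudyne and 0.855% ± 0.0791 in vehicle.

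The size of the rise depended on how libraries were scaled. With total counts as the library size, all genes had a median log2 fold change of -0.19 and the 13 messenger RNAs one of 0.21, or 0.41 above it. mt-Atp6 was then at 0.28 (edgeR adjusted p = 0.021) and mt-Rnr2 at 0.15 (edgeR adjusted p = 0.033), while mt-Rnr1, at 0.12, was not called. There were 11 mitochondrial genes called higher and 0 lower, all of them also called with TMM, where 1.23% of all genes were called higher and 24.5% lower. Library sizes from nuclear genes alone gave 14 calls, where 8.43% of all genes were called higher and 11.9% lower. DESeq2 called 16, the same 14 with mt-Tp and mt-Ty, where 12.5% of all genes were called higher and 15.2% lower. With no filter on low counts 12 were called and the ribosomal RNAs were not, where 2.99% of all genes were called higher and 4.6% lower.

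The mitochondrial genes are poor in GC, at 31.9% to 41.1% for the messengers, against a median of 48.6% over the tested genes with a known GC content, and the libraries differed in how counts varied with GC. For each library a slope on GC content, per 10% GC, was taken from each gene's log2 CPM minus its mean over all libraries. The slopes are thus relative to the average of these libraries, and a slope near 0 does not mean counts free of GC. They were -0.51, -0.11, -0.21, -0.13 and 0.011 in Visudyne libraries 1 to 5, against 0.28, 0.15, 0.15, 0.39 and -0.017 in vehicle libraries 6 to 10. The summed CPM of the 13 messengers was 52840, 48090, 49094, 40106 and 38540 in the same Visudyne libraries, against 31432, 36335, 35845, 32733 and 37071 in vehicle. Visudyne 5 and vehicle 10 had slopes near 0 and the nearest sums of the groups, and Visudyne 1 had the steepest slope and the highest sum. Slopes and sums did not keep the same order throughout. Visudyne 2 and Visudyne 4, with slopes of -0.11 and -0.13, had sums of 48090 and 40106. Vehicle 9 had the highest slope, and vehicle 6 the lowest sum.

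With each library's GC trend removed, 0 of the 30 mitochondrial genes were called, where 1.24% of all genes were called higher and 1.68% lower. The median of the 13 messengers was then 0.10, mt-Atp6 was at 0.16 and mt-Nd4 at 0.13, and the ribosomal RNAs were at 0.0041 for mt-Rnr1 and 0.023 for mt-Rnr2. At an unadjusted p under 0.05 there were 0 of the 13 messengers in that edgeR fit, and 3713 of all 15938 genes. With the library's GC slope as a covariate, 0 mitochondrial genes were called among 0 called in the whole table (0.0%), and the messenger median was 0.17. At an unadjusted p under 0.05 there were 2 messengers and 1050 of all genes. With 1 surrogate variable the messenger median was 0.25 and 0 mitochondrial genes were called, where 0.00627% of all genes were called higher. In that fit 10 of the 13 messengers lay under an unadjusted p of 0.05, as did 2295 of all 15938 genes. The slope differed between the groups, and its part in the rise cannot be told apart from that of the treatment by these fits.

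**Figure D4:**
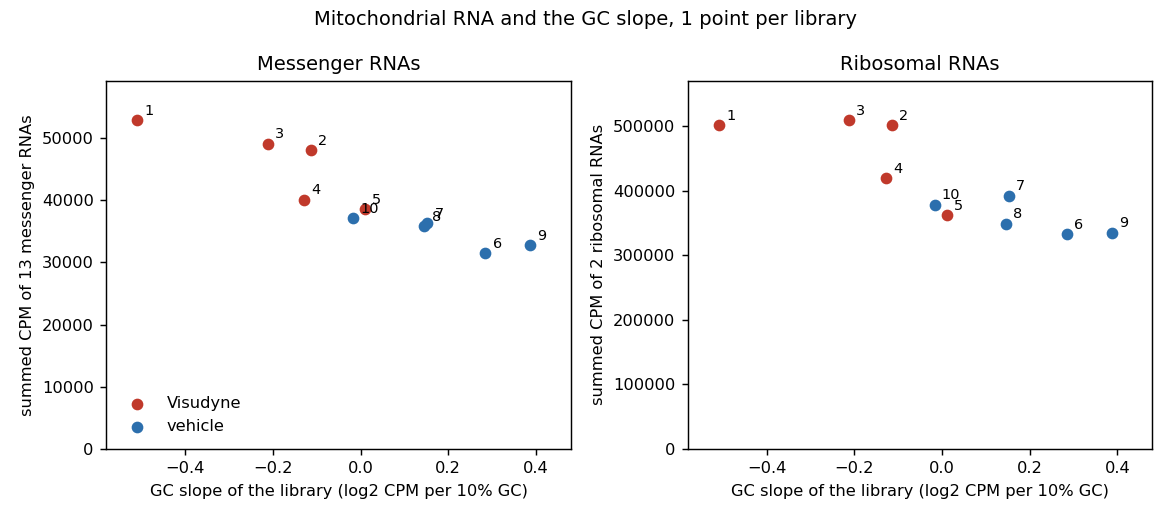
Summed CPM of the 13 mitochondrial messenger RNAs (left) and of the 2 ribosomal RNAs (right) against the GC slope of the same library, with 1 numbered point per library, Visudyne in red and vehicle in blue. The slope is that of each gene's log2 CPM, minus its mean over all libraries, on gene GC content. Visudyne 1 has a slope of -0.51 and 52840 CPM of messenger RNA, and Visudyne 5 and vehicle 10, with slopes near 0, have 38540 and 37071 CPM. Visudyne 2 and Visudyne 4, with slopes of -0.11 and -0.13, have 48090 and 40106 CPM.

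**Figure D5:**
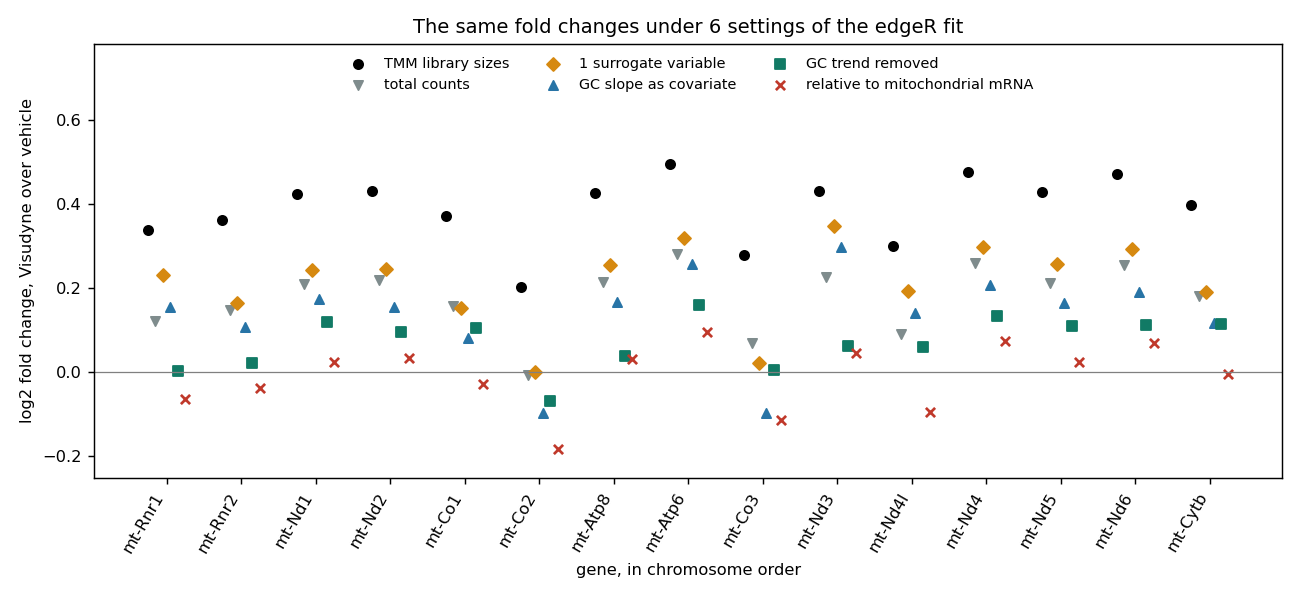
Log2 fold change of Visudyne over vehicle for the 2 ribosomal and 13 messenger RNAs under 6 settings of the edgeR fit, without error bars. For mt-Atp6 it is 0.49 with TMM, 0.28 with total counts, 0.16 with the GC trend removed and 0.10 relative to the mitochondrial messengers.

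The nuclear genes that maintain mitochondrial DNA and transcribe, process, modify and charge its RNA were called in both directions. Of 89 listed genes 87 were tested, and 7 were called higher and 7 lower at a median log2 fold change of -0.049, where 8.98% of all genes were called higher and 11.5% lower. With total counts the split was 0 higher and 19 lower, where 1.23% of all genes were called higher and 24.5% lower. By class, 2 of 17 tested genes of transcription and DNA maintenance were called higher and 2 lower, 1 of 15 processing genes higher and 2 lower, 1 of 22 modification genes higher and 1 lower, and 1 of 19 aminoacyl-tRNA synthetases higher and 2 lower. Of 7 genes of RNA stability and decay 1 was called higher, and of 7 regulators of biogenesis 1 was called higher. Without Visudyne 3, vehicle 6 or vehicle 9 there were 0 calls by edgeR, where 27, 10 and 309 of all genes were called in the same order. These fits held 24 to 25 of the 87 genes at an unadjusted p under 0.05, and 5135 to 5332 of all genes. With the GC trend removed there was 1 call, as lower, where 1.24% of all genes were called higher and 1.68% lower. There were 4 of the list and 1119 of all genes called without Visudyne 1, 8 and 1825 without Visudyne 2, 5 and 1127 without Visudyne 4, and 24 and 5047 without Visudyne 5. There were 5 of the list and 1566 of all genes called without vehicle 7, and 9 and 2196 without vehicle 8.

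Among genes of transcription, Polrmt, the mitochondrial RNA polymerase, was thinly counted at 0.314 to 0.886 CPM in Visudyne and 0.551 to 1.4 CPM in vehicle libraries. It fell, at a log2 fold change of -0.95 (edgeR adjusted p = 0.049, SE 0.31), and stood at -0.45 once the GC trend was removed and at 0.11 in the model with the GC slope. Tfam, which packages mitochondrial DNA and starts transcription, had a mean of 37.2 ± 1.4 CPM in Visudyne libraries, against 34.9 ± 3.28 CPM in vehicle libraries (log2 fold change 0.089, edgeR adjusted p = 0.35, 5 libraries a group). The elongation factor gene Tefm was at -0.055 and did not pass. Mterf3, a gene of the mitochondrial termination factor family, rose at 0.29 (edgeR adjusted p = 0.035, SE 0.083).

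Ppargc1a, a coactivator of mitochondrial biogenesis, was at 48.1 to 55.4 CPM in Visudyne, with a median of 52, and at 39 to 46.6 CPM in vehicle, with a median of 43.3. It rose without overlap of the groups (log2 fold change 0.29, edgeR adjusted p = 0.025, SE 0.065, 5 libraries a group), and was at 0.057 and not called with the GC trend removed. Of the RNA processing genes, Elac2, which cuts the 3′ end of transfer RNAs out of precursors, fell at -0.42 (edgeR adjusted p = 0.027, SE 0.10). Lrpprc and Slirp, partners that stabilise mitochondrial messenger RNA, were at 0.064 and 0.058 and did not pass. Each was above the vehicle mean in 5 of 5 Visudyne libraries. Slirp overlapped between the groups. Lrpprc did not, at 87.5 to 92.9 CPM in Visudyne and 83.1 to 87.4 CPM in vehicle libraries. Over all tested genes, 5.25% had every Visudyne library above every vehicle library. Lactb2, a mitochondrial ribonuclease gene, rose at 0.33.

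Of the modification genes, Osgepl1, which acts on transfer RNAs, rose at a log2 fold change of 0.31, and Cdk5rap1, which also modifies transfer RNAs, fell at -0.29. Among aminoacyl-tRNA synthetases, Mars2, for methionine in mitochondria, rose at 0.34, and Kars, for lysine in both cytosol and mitochondria, fell at -0.40. Kars was the only listed gene called with the GC trend removed, at -0.44 (edgeR adjusted p = 0.039), and was at -0.051 with the GC slope as covariate. Mars2, Lactb2, Osgepl1 and Mterf3 were at 0.055, 0.067, 0.041 and 0.074 with the GC trend removed, and none of them was called.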

How the data were processed

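The authors deposited a single table with 1 whole number per gene and library. The submitters' processing notes list FastQC, Salmon and mm10. Since Salmon estimates counts, the deposited numbers were treated as estimated counts in rounded form. Versions, annotation, filters and strand setting are not stated in the labels. Symbols, strands, lengths and GC content came from GENCODE M21 (GRCm38), in which 27053 of 27343 identifiers were found.

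The whole table was fitted in R 4.3.3 with edgeR 4.0.16 (filterByExpr, TMM, quasi-likelihood test, two-sided, groups only), with p-values adjusted over 15938 tested genes. A standard error is the log2 fold change over the root of its F. Ratios were tested with exact permutations (scipy 1.17.1), whose smallest p is 0.00794. Nuclear copies came from a BLAST+ 2.17.0 search. GC trends were removed through offsets from a loess (span 0.3) in each library, and GC content was known for 15829 tested genes. Alternatives were other scalings and filters, DESeq2 1.42.0, limma-voom (limma 3.58.1), 1 surrogate variable (sva 3.50.0) and leaving out each library.

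The test was tried on simulated counts for Visudyne against vehicle over 15938 genes. It called 54 of 100 genes set to 1.5-fold, 73 of 100 set to 2-fold and 7 of 15738 left alone. The changed genes were drawn at random from all tested genes, and each gene was simulated independently. The largest fold of the messenger and ribosomal RNAs was 1.41, for mt-Atp6, so these shares do not give the power for them. Whether these numbers hold for libraries that differ in GC slope, as the present ones do, was not tested. The genes, ratios and lists were chosen with earlier results of these data known. The genes named are all messenger and ribosomal RNAs, all transfer RNAs, up to 8 called genes of the nuclear list with the smallest p, Polrmt, Tfam, Lrpprc, Slirp, Tefm and Ppargc1a, and nuclear copies with a mean of at least 1 CPM.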

Additional observations from a re-analysis of the deposited data

Results flagged for a closer look

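Among 82 sets of 5 libraries (the CPM of 30 tested genes, 8 ratios and 3 class shares in each group), 2 held a library far from the other 4, where chance gives about 1 in 20. In vehicle libraries mt-Tf was at 0.787 CPM in vehicle 10 and at 0.407 to 0.484 CPM in the others, on 16 to 20 counts in each. In Visudyne libraries mt-Tc was at 3.69 CPM in Visudyne 4 and at 5.31 to 5.97 CPM in the others. Neither gene was called between the groups.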

How the results depend on the processing

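No paired analysis was possible because the 2 groups share no replicate number (Visudyne 1 to 5, vehicle 6 to 10). Of the 30 tested mitochondrial genes, 14 were called with all libraries, and 0 to 16 without 1 library. The count was 0 relative to the mitochondrial messengers, 0 with the GC trend removed, 0 with the GC slope as covariate and 0 with 1 surrogate variable. It stayed within 11 to 16 under the other scalings, filters and tools. The cause was not tested. Of the 89 listed nuclear genes, 14 were called, against 55 relative to the mitochondrial messengers, 8 with no filter, 22 with DESeq2, 1 with the GC trend removed, 0 with the GC slope as covariate, 0 with 1 surrogate variable and 0 to 24 without 1 library. Over all genes 3261 were called, against 7850 relative to the mitochondrial messengers, 2075 with no filter, 4419 with DESeq2, 465 with the GC trend removed, 0 with the GC slope as covariate, 1 with 1 surrogate variable and 10 to 5047 without 1 library.

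Positive log2 fold changes turned negative as follows. Relative to the mitochondrial messengers, values were -0.064 for mt-Rnr1, -0.037 for mt-Rnr2, -0.028 for mt-Co1, -0.18 for mt-Co2, -0.11 for mt-Co3, -0.094 for mt-Nd4l, -0.0035 for mt-Cytb, -0.23 for mt-Ti, -0.36 for mt-Tq, -0.15 for mt-Tm, -0.19 for mt-Ta, -0.19 for mt-Tc, -0.014 for mt-Ts1, -0.34 for mt-Th, -0.032 for mt-Tt and -0.084 for mt-Tp. With total counts, they were -0.0069 for mt-Co2, -0.050 for mt-Ti, -0.18 for mt-Tq, -0.0035 for mt-Ta, -0.0023 for mt-Tc and -0.14 for mt-Th. With the GC trend removed, they were -0.068 for mt-Co2, -0.33 for mt-Ti, -0.31 for mt-Tq, -0.18 for mt-Ta, -0.13 for mt-Tc, -0.32 for mt-Th and -0.00054 for mt-Tt, and the ratios of mt-Nd6 to mt-Nd5 and to mt-Cytb were at -0.0031 and -0.0053. With the GC slope as covariate, they were -0.097 for mt-Co2, -0.096 for mt-Co3, -0.22 for mt-Ti, -0.44 for mt-Tq, -0.18 for mt-Tm, -0.17 for mt-Ta, -0.40 for mt-Th and -0.041 for mt-Tp. With 1 surrogate variable, they were -0.073 for mt-Ti, -0.30 for mt-Tq, -0.057 for mt-Ta and -0.11 for mt-Th. Without 1 library, mt-Th ranged from -0.14 to 0.32, mt-Ti from -0.013 to 0.39, mt-Tq from -0.10 to 0.23 and mt-Rnr1 over mt-Rnr2 from -0.067 to 0.046. Low counts limit the transfer RNAs, of which 7 had at most 13 counts in a library.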
